A study of Mus musculus with 84 samples.

Results

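The genes described here lie on mouse chromosome 4 between 130 and 144 Mb (positions 130000001 to 144000000, build mm10), and their messenger RNA was counted in ventrolateral striatum. Levels are given as CPM, the share of a library's reads that a gene takes, scaled to a common library size. A gene belonged to the set when its smallest start in the deposited table fell in that interval and its total count over the 84 libraries was 84 or more. Of the 441 genes of the table that start there, 180 had a total under that minimum (77 of them at 0), 12 were left out by name, and 249 remained, out of 43629 genes in the table. Members were thus chosen by position and total count. The interval itself was proposed with the line differences of these data in view, so the share of its genes that passed is a description and nothing is read from it.

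The RNA came from untreated (naive) adult animals of the mouse lines SOT and NOT, selected together for 2 ethanol traits, preference and withdrawal, and labelled S4. By the labels, 44 animals were High Drinkers, 21 of them female and 23 male, and 40 were Low Drinkers, 18 female and 22 male. The labels do not say which group is SOT and which is NOT. They state no age beyond adult, no families and no replicate lines, so each p-value measures the spread between these animals, and a difference between the lines cannot be told apart from relatedness within a line. Sample numbers at the end of the titles run in 3 series, here called sheet sets, of 48, 30 and 6 libraries. High Drinker animals make up 30, 11 and 3 of these and Low Drinker animals 18, 19 and 3. The set was therefore a term in the models, except in fits within a single set and where a result is given without the set term.

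Genes that sit close together on a chromosome are inherited together until recombination separates them, and a sequence variant near a gene can raise or lower the RNA of that gene or of its neighbours. In lines derived by selection, stretches of a chromosome can become fixed or differ in frequency between lines, by selection or by chance. Neighbouring genes can also share a promoter region, overlap on opposite strands or follow the same cell type, and then their RNA levels move together between animals. The ventrolateral striatum is a forebrain region made up mainly of GABAergic medium spiny neurons, with interneurons, glia and vessels among them.

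Total counts ran from 22190363 to 41300401 in High Drinker libraries (median 31877407) and from 27561410 to 35941404 in Low Drinker libraries (median 30874656.5). None of the 3486 library pairs was identical (0 pairs). High Drinker 17 and Low Drinker 8, 32, 33 and 34 had the 5 lowest median correlations with the other libraries (Pearson r of log2 CPM, 0.968 to 0.977, against 0.978 to 0.989 for the rest), and results are given without them where a call changed. An outlying composition was seen in High Drinker 11, where Gm42418, a ribosomal RNA gene, made up 10.2% of all counts (the top gene of a library made up 0.490% in the median). Defining markers of medium spiny neurons, cortical glutamatergic neurons, oligodendrocytes, astrocytes, microglia, ependyma and vessels were all detected, 0 of them at 0 in all libraries, and 0 passed between the lines. The summed level of 10 medium spiny neuron markers ran from 524 to 10997 CPM in High Drinker (median 3758) and from 293 to 9504 in Low Drinker animals (median 3238), with all 10 at a positive fold change (median 0.12 on the log2 scale). In bulk tissue, fewer cells of a type and less RNA per cell cannot be told apart.

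At the lower edge the first members were Gm12963 (start 130024256, total count 2304) and Col16a1 (130047840, 60270), and the nearest genes outside were Adgrb2 (129984870) and 1700003M07Rik (129960374). At the upper edge Pramef8 (143412426) and Gm13080 (143611658) were the last inside, and 1700012P22Rik (144418189) and Gm13127 (144587244) the first outside. The count minimum ran between Anp32b-ps1 (87 counts in total) and Gm13252 (89) on one side and Gm12981 and Gm23634 (83 each) on the other. Of the 249 members, 246 had a symbol and 191 were annotated as protein coding in GENCODE. The filter on low counts kept 199 for testing. Of the 50 not tested, 18 were protein coding, and the highest average among them was 0.229 CPM. Tested members averaged from 0.185 to 1491 CPM, with a median of 17.6 CPM.

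Promoter sequences from RefSeq (GRCm38.p6) were matched by symbol for 183 members. The 250 bases before the start are shown for 4 members that differed between the lines and whose window touches no annotated exon, a pair that was higher in High Drinker animals (Sfn and Hp1bp3) and a pair that was lower (Nudc and Pdpn). Capitals mark matches, on either strand, to the TATA box TATAAA, the CCAAT box CCAAT, the GC box GGGCGG, the E-box CACGTG, the ETS motif CCGGAAGT or the NRF1 motif by its name.
Sfn, chr4:133602169-133602418, minus strand: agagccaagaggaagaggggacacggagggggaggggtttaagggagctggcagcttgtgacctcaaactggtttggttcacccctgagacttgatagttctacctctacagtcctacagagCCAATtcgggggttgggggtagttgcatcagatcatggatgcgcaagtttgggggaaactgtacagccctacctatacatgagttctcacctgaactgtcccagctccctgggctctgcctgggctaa
Hp1bp3, chr4:138216877-138217126, plus strand: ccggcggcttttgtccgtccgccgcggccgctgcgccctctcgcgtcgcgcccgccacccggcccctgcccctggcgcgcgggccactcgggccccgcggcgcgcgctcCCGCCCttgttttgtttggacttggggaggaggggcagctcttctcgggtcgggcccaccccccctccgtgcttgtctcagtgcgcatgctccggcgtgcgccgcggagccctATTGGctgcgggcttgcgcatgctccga
Nudc, chr4:133546028-133546277, minus strand: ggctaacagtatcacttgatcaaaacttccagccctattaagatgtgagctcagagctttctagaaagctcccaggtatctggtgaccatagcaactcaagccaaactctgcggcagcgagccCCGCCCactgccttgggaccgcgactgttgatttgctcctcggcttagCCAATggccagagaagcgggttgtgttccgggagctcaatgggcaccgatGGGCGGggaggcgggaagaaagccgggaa
Pdpn, chr4:143299565-143299814, minus strand: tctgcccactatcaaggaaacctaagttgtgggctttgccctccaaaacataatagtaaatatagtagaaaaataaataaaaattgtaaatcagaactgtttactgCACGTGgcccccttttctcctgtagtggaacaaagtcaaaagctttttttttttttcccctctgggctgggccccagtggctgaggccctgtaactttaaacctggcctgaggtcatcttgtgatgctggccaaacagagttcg

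The Hp1bp3 window held 36 CG dinucleotides and the Nudc window 12, against a median of 6 over 32851 promoters of the same length, while Sfn had 3 and Pdpn 2. A CCAAT box stood in the windows of Sfn, Hp1bp3 and Nudc, and 33.8% of all promoters hold one. GC boxes numbered 1 in Hp1bp3 and 2 in Nudc (32.7% of all promoters hold at least 1). Pdpn had the only E-box of the 4 windows (6.02% of all). None held the TATA box (12.4% of all), the ETS motif (2.88%) or the NRF1 motif (0.782%). The deposited coordinates of Hp1bp3 begin at 138216296, upstream of the RefSeq start, so its window lies inside the gene as counted. These matches are a description of letters and were compared with no measurement of binding.

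The first question was which members differed between High Drinker and Low Drinker animals. With edgeR's quasi-likelihood test on the whole table and Benjamini-Hochberg adjustment over all 17071 genes tested, 26 of 199 tested members passed at 0.05 (13.1%). High Drinker animals had 16 of these at a higher and 10 at a lower level. Over all genes tested the share was 3.94% (1.86% higher and 2.08% lower). At an unadjusted p under 0.05 there were 73 members, beside 18% of all genes. The median log2 fold change (High Drinker minus Low Drinker) of the tested members was -0.01, that of all genes 0.0013, and 99 of 199 members (49.7%) had a positive sign, against 50.6% of all genes. The median size of the difference, regardless of sign, was 0.088 among members and 0.057 among all genes. Among those that passed it was 0.25 for members and 0.21 for all genes that passed.

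Counts of genes that passed are given by megabase, beside 13.1% of all tested members, and their spread was not tested. The megabase from 133 held 5 among 19 tested genes (26.3%) and that from 139 held 4 among 12 (33.3%). Those from 134 and 138 held 3 each, among 21 (14.3%) and 15 (20%). The megabases from 136, 137, 140 and 141 held 2 each, among 15, 10, 8 and 26. Those from 132, 142 and 143 held 1 each, among 26, 3 and 6. None of the tested genes passed in the megabases from 130 (0 of 15), 131 (0 of 7) and 135 (0 of 16). Higher and lower genes could lie close together: Nudc (lower) and Sfn (higher) start 0.068 Mb apart, with Gpatch3 and Gpn2 between them. In the megabase from 139, by contrast, all 4 that passed were lower (Nbl1, Minos1, Akr7a5 and Mrto4).

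**Figure D1:**
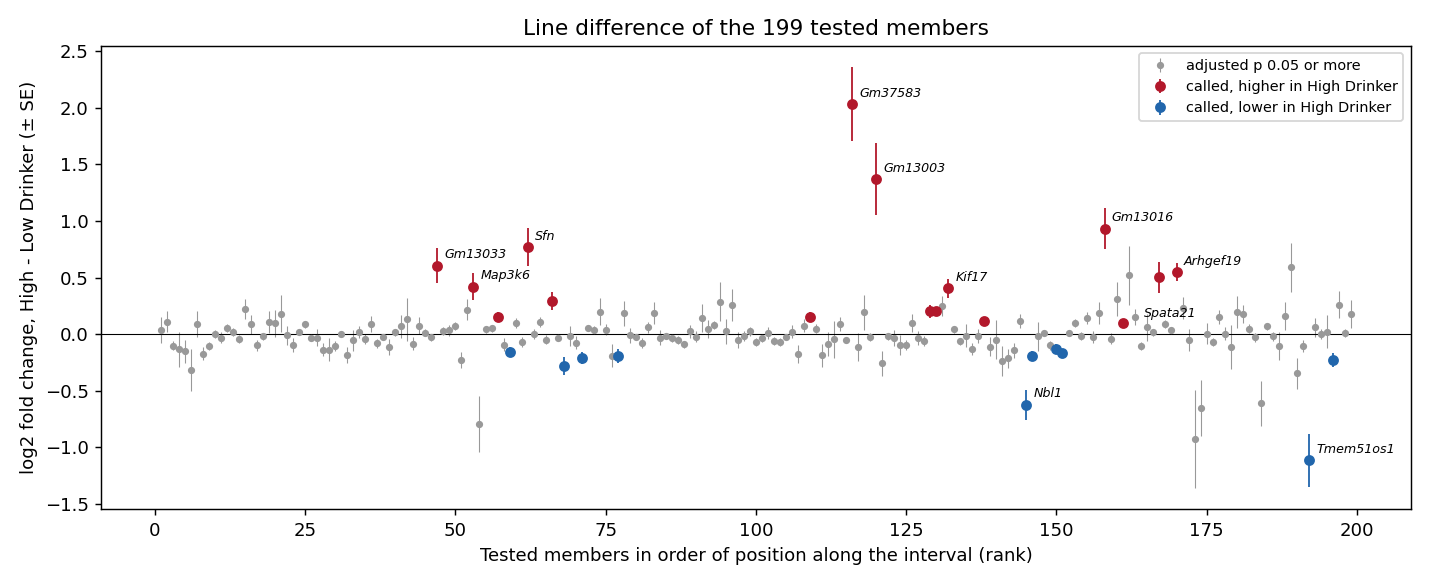
Log2 fold change (High Drinker minus Low Drinker, vertical axis) with its standard error for the 199 tested members, ordered by position along the interval (horizontal axis, rank). Red points are the 16 members that were higher, blue points the 10 that were lower and grey points the rest, and the genes with the largest differences, such as Gm37583 at 2.04 and Tmem51os1 at -1.12, average under 1 CPM.

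The gene groups below were written with earlier results of these data known, and some genes are in several. Their counts by direction are a description of the lists. They stand beside 13.1% of all tested members and 3.94% of all genes that passed. Among regulators of small GTPases and the cytoskeleton, Arhgef19 had the smallest p of all members. It encodes a guanine nucleotide exchange factor that switches on small GTPases (ENSMUSG00000028919, chromosome 4, 141239499 to 141257564, plus strand). Across the 44 High Drinker libraries Arhgef19 ran from 8.95 to 26.5 CPM with a median of 17.02, and across the 40 Low Drinker libraries from 6.93 to 16.6 CPM with a median of 10.7. The ranges overlapped, yet 23 High Drinker libraries lay above the highest Low Drinker library and 38 of 44 above the Low Drinker median. Means were 16.7 ± 4.65 CPM (SD, n = 44) and 11.5 ± 2.26 CPM (SD, n = 40). On the log2 scale the fold change was 0.55 ± 0.08 (SE, adjusted p = 1.19e-06, edgeR). The difference was 0.49 in sheet set 1 and 0.80 in sheet set 2, and 0.55 in females and 0.60 in males, and it passed in each of these 4 subsets (edgeR, adjusted p from 0.00041 to 0.0257).

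Kif17, a kinesin motor that carries NMDA receptor vesicles along dendrites (138250435 to 138301967, plus strand), also rose. Its libraries spanned 26.8 to 79.1 CPM in High Drinker animals (median 46.5) and 21.3 to 57.1 CPM in Low Drinker animals (median 36.5), with 12 High Drinker libraries above every Low Drinker one. The log2 fold change was 0.40 ± 0.08 (SE, adjusted p = 0.00128), 0.62 in sheet set 2 and 0.32 in sheet set 1. Kif17 shares exons with Sh2d5 on its own strand, so their reads are not fully separable. Sh2d5 itself, an SH2 domain protein, was at 193 ± 59.1 CPM (SD, n = 44) and 157 ± 44.4 CPM (SD, n = 40), a log2 fold change of 0.25 that did not pass (edgeR, adjusted p = 0.107). In the opposite direction, Sh3bgrl3, a small thioredoxin-like protein whose gene overlaps Ubxn11 on the other strand, fell by 0.21 on the log2 scale (adjusted p = 0.00865), from 127 ± 23.4 CPM (SD, n = 40) to 110 ± 16.3 CPM (SD, n = 44), with 36 of 44 High Drinker libraries below the Low Drinker median. Of the 17 tested genes of this group, 2 passed higher and 1 lower, with a median of 0.03. Its most abundant member, the Rap inhibitor Rap1gap, had a log2 fold change of 0.10 (adjusted p = 0.540), and the polarity GTPase Cdc42, named here after its values were seen, had 283 ± 28.4 CPM (SD, n = 44) in High Drinker animals and a log2 fold change of -0.02 (adjusted p = 0.802).

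**Figure D2:**
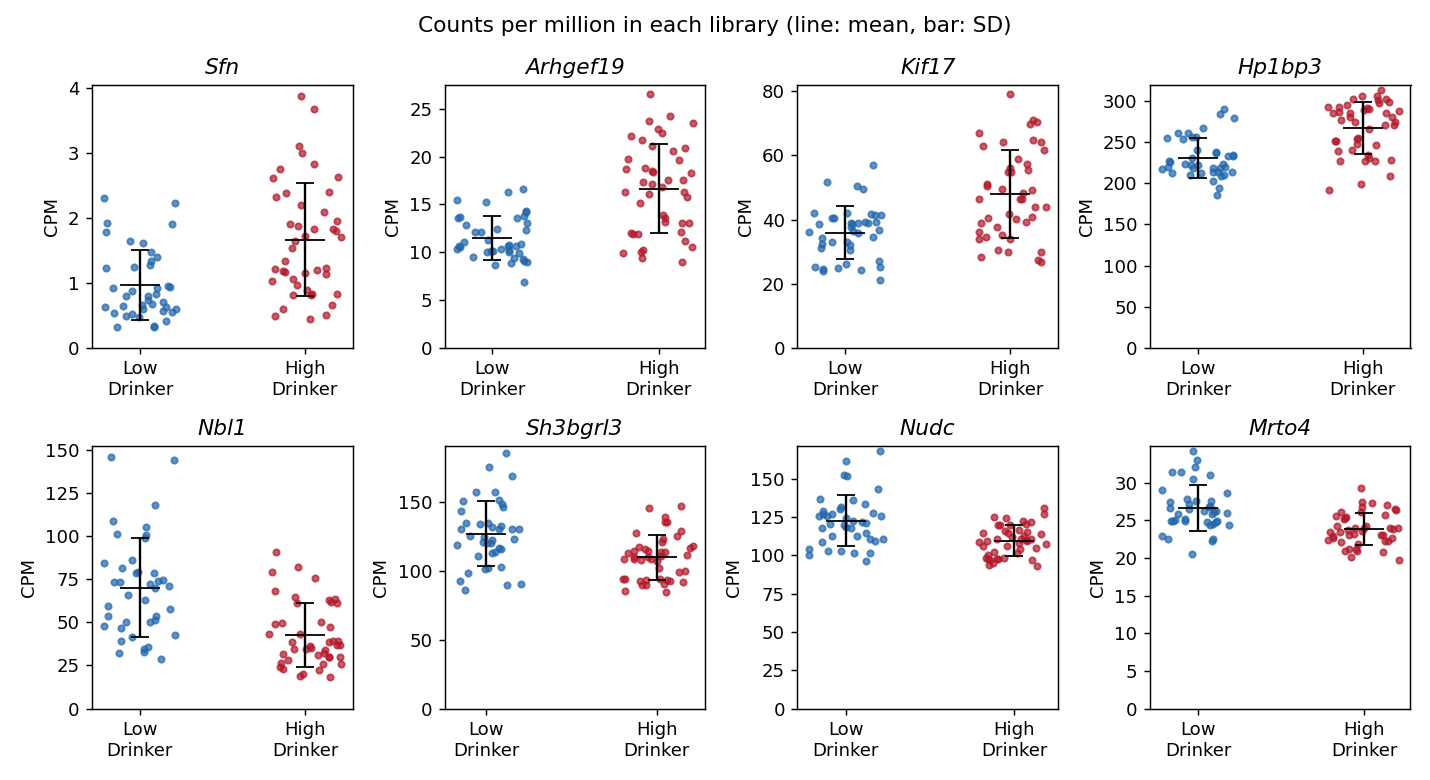
CPM (vertical axes, starting at 0) of 8 members in each of the 40 Low Drinker (blue) and 44 High Drinker (red) libraries, with the mean as a line and the SD as a bar. Sfn, Arhgef19, Kif17 and Hp1bp3 were higher in High Drinker animals, Nbl1, Sh3bgrl3, Nudc and Mrto4 were lower, and the ranges of the lines overlapped in all 8.

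Chromatin and transcription genes contributed 4 members that rose and 0 that fell, among 18 tested (median 0.02, 12 with a positive sign). Hp1bp3, a relative of linker histone H1 that binds heterochromatin protein 1 (138216296 to 138244683, plus strand), ran from 192 to 313 CPM in High Drinker libraries (median 276) and from 185 to 290 CPM in Low Drinker libraries (median 224). Of the High Drinker libraries 41 of 44 exceeded the median of the Low Drinker ones, and 13 exceeded the highest Low Drinker value. Its log2 fold change was 0.21 ± 0.04 (SE, adjusted p = 0.000108). The nucleosome-binding protein Hmgn2 was at 51.3 ± 13.7 CPM (SD, n = 44) against 40.6 ± 9.50 CPM (SD, n = 40), a log2 fold change of 0.29 (adjusted p = 0.0161). Hmgn2 was at 0.26 in sheet set 1 and 0.44 in sheet set 2, and passed in neither (edgeR, adjusted p = 0.236 and 0.159). Without the 5 libraries that stood apart its adjusted p was 0.0553 (edgeR), at a log2 fold change of 0.25. Hmgn2 has processed copies elsewhere in the genome, and no source used here says how reads shared with them were counted, so its level is uncertain.

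The zinc finger gene Zfp46 rose by 0.15 on the log2 scale (adjusted p = 0.0188, 36 of 44 above the Low Drinker median). Its difference was 0.17 in sheet set 1 and 0.08 in sheet set 2, and its adjusted p (edgeR) was 0.0729 without the set term and 0.0637 without sheet set 3. Rcc2, which encodes a regulator of chromosome condensation and of the GTPase Rac, had a small and narrow difference of 0.10 ± 0.02 (SE, adjusted p = 0.00958), at 114 ± 9.74 CPM (SD, n = 44) and 107 ± 5.91 CPM (SD, n = 40). It was 0.07 in sheet set 1 and 0.15 in sheet set 2, and passed in neither (edgeR, adjusted p = 0.306 and 0.272). An exon of Rcc2 overlaps the small RNA gene Gm25951. Other chromatin genes, such as the histone demethylase Kdm1a at -0.06 (adjusted p = 0.125) and the DNA replication protein Rpa2 at -0.08 (adjusted p = 0.478), did not pass.

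Kinases and signalling genes gave 3 members that rose and 0 that fell among 12 tested (median 0.03). Sfn, the 14-3-3 sigma protein that binds phosphorylated partners (133600556 to 133602168, minus strand, promoter shown above), had the largest rise among the members that passed above 1 CPM. Single libraries ranged from 0.450 to 3.87 CPM in High Drinker (median 1.59) and from 0.322 to 2.31 CPM in Low Drinker animals (median 0.794). Of 44 High Drinker libraries 39 lay above the Low Drinker median and 11 above every Low Drinker library, and the log2 fold change was 0.77 ± 0.17 (SE, adjusted p = 0.00264), with 0.69 in sheet set 1 and 1.25 in sheet set 2. The stress kinase Map3k6 was at 2.29 ± 0.749 CPM (SD, n = 44) and 1.67 ± 0.749 CPM (SD, n = 40), a log2 fold change of 0.42 (adjusted p = 0.0244). That difference was 0.25 in sheet set 1 and 0.72 in sheet set 2, and the adjusted p was 0.0507 (edgeR) without the 5 libraries that stood apart.

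Camk2n1, an inhibitor of CaM kinase II and the most abundant member of all, did not pass: it spanned 803 to 2306 CPM in High Drinker and 902 to 2347 CPM in Low Drinker animals, a log2 fold change of -0.11 (adjusted p = 0.511). Per kilobase of exon Camk2n1 was at 325 and 348 CPM per kilobase in the lines, against 3.93 and 2.71 for Arhgef19 on the same scale.

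Among secreted and surface proteins of axon guidance, growth factor and matrix signalling, 0 rose and 2 fell of 14 tested (median 0.04). Nbl1, which blocks bone morphogenetic proteins outside the cell (139082284 to 139092993, minus strand), ran from 18.5 to 90.5 CPM in High Drinker libraries (median 36.9) and from 28.8 to 146 CPM in Low Drinker libraries (median 70.3). In 10 High Drinker libraries it was below the lowest Low Drinker library. Its log2 fold change of -0.62 ± 0.13 (SE, adjusted p = 0.00147) was -0.58 in sheet set 1 and -0.94 in sheet set 2. Pdpn, the membrane glycoprotein podoplanin, was at 8.76 ± 1.65 CPM (SD, n = 44) and 9.90 ± 2.12 CPM (SD, n = 40), a log2 fold change of -0.23 (adjusted p = 0.0266), with -0.14 in males alone and an adjusted p (edgeR) of 0.101 without the set term.

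The heparan sulfate proteoglycan Sdc3, the most abundant of this group, had 245 ± 26.9 CPM (SD, n = 44) and 246 ± 29.3 CPM (SD, n = 40), a log2 fold change of 0.02 (adjusted p = 0.837). Receptors and ligands of axon guidance did not pass either. The Wnt ligand gene Wnt4 was at 15.97 ± 5.40 CPM (SD, n = 44) and 20.3 ± 6.91 CPM (SD, n = 40), a log2 fold change of -0.26 (adjusted p = 0.195). The ephrin receptor genes Ephb2 and Epha2 had values of -0.12 (adjusted p = 0.675) and 0.23 (adjusted p = 0.185).

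The listed mitochondrial and metabolic genes of the interval had mostly negative signs. Of 15 tested, 2 had a positive fold change (Mul1 and Aldh4a1), beside 49.7% of tested members and 50.6% of all genes. The median was -0.06, with 1 member that rose and 3 that fell. Such genes outside the interval were not compared, and the signs were not tested. Minos1, a subunit of the complex that forms cristae junctions, ran from 58.3 to 92.7 CPM in High Drinker (median 71.0) and from 65.2 to 127 CPM in Low Drinker libraries (median 78.6), and 9 High Drinker libraries were below the Low Drinker range. Its log2 fold change was -0.19 ± 0.04 (SE, adjusted p = 0.00281).

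Akr7a5, an aldehyde reductase, fell by 0.13 on the log2 scale (adjusted p = 0.0448) and was called in 5 of 13 alternative analyses. Its adjusted p was 0.182 (edgeR) without the 5 libraries that stood apart, 0.0510 with limma-voom, 0.0662 with no filter and 0.0533 without sheet set 3. Pafah2, which hydrolyses platelet-activating factor and oxidised phospholipids, fell by 0.20 (adjusted p = 0.0491). Its log2 fold change was -0.14 without the 5 libraries (edgeR, adjusted p = 0.217). It was -0.18 in sheet set 1 and -0.33 in sheet set 2, and passed in neither (edgeR, adjusted p = 0.246 and 0.236). Mul1, a ubiquitin and SUMO ligase of the outer mitochondrial membrane, had a narrow spread, at 51.2 ± 3.95 CPM (SD, n = 44) and 47.4 ± 2.99 CPM (SD, n = 40). For Mul1 17 High Drinker libraries exceeded all Low Drinker libraries, and the log2 fold change of 0.12 ± 0.02 (SE, adjusted p = 0.000936) was 0.06 in sheet set 1 and 0.23 in sheet set 2. Pink1, the mitochondrial quality-control kinase and the most abundant of the group, was at 331 ± 25.98 CPM (SD, n = 44) and 348 ± 38.8 CPM (SD, n = 40), a log2 fold change of -0.06 (adjusted p = 0.269).

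The list of RNA binding and translation genes, in which Nudc was also placed, gave 1 member that rose and 2 that fell among 15 tested (median -0.02). Eif4g3, a scaffold of cap-dependent translation initiation, ran from 178 to 369 CPM in High Drinker libraries (median 270) and from 177 to 352 CPM in Low Drinker libraries (median 246), almost the same range. The log2 fold change in the model with set and sex was 0.20 ± 0.06 (SE, adjusted p = 0.0261), and without the set term it was 0.15 (edgeR, adjusted p = 0.123). Nudc, a chaperone of the dynein pathway, fell by 0.15 (adjusted p = 0.00556), from 123 ± 16.5 CPM (SD, n = 40) to 110 ± 9.92 CPM (SD, n = 44), with 38 of 44 libraries below the Low Drinker median. Mrto4, a ribosome assembly factor, was lower by a similar amount at -0.16 ± 0.03 (SE, adjusted p = 0.000964), with 37 of 44 libraries below that median. The most abundant gene of this group, Rsrp1, had a log2 fold change of -0.05 (adjusted p = 0.406).

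The list of cilium and centrosome genes had 6 tested (median 0.17), of which 0 fell. Those that rose were Kif17, described above with the cytoskeleton, and Spata21, which was placed there by the list and averaged under 1 CPM. In the groups of ubiquitin and protein turnover (11 tested, median -0.06), endoplasmic reticulum, glycosylation and lysosome (17 tested, median -0.03) and immune genes (6 tested, median 0.03), 0 members passed in either direction by edgeR. Their most abundant members were Ubr4, a ubiquitin ligase (0.10, adjusted p = 0.142), Atp13a2, a lysosomal polyamine transporter (-0.11, adjusted p = 0.0840, with 36 of 44 libraries under the median of the other line), and Laptm5, a lysosomal protein of immune cells (-0.04, adjusted p = 0.615). Atp13a2 passed without the set term (-0.15, edgeR, adjusted p = 0.0154) and with 5 surrogate variables in the model (-0.08, edgeR, adjusted p = 0.0307), and Ubr4 passed with surrogate variables (0.10, edgeR, adjusted p = 0.0468). The tested peptidylarginine deiminase, Padi6, was at 0.52 (adjusted p = 0.279, and 0.0237 by edgeR with surrogate variables), and the tested secreted phospholipase A2, Pla2g5, at -0.22 (adjusted p = 0.157). Crybg2, which carries crystallin domains and is in none of these groups, fell by 0.28 (adjusted p = 0.0337, with 40 of 44 libraries under the median of the other line). It overlaps Cd52 on the other strand, and its adjusted p was 0.0752 (edgeR) without the 5 libraries. Its log2 fold change was -0.27 in sheet set 1 and -0.45 in sheet set 2, and passed in neither (edgeR, adjusted p = 0.252 and 0.187).

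A further 6 members passed at averages under 1 CPM, named here after their values were seen. Gm37583 rose by a log2 fold change of 2.04 (adjusted p = 1.27e-05), at 0.296 ± 0.269 CPM (SD, n = 44) and 0.0635 ± 0.0938 CPM (SD, n = 40). It had no count in 3 High Drinker and 14 Low Drinker libraries, and its difference was 3.30 in sheet set 2 and 1.65 in sheet set 1. Gm13003 (1.37, adjusted p = 0.00472) had no count in 4 and 13 libraries. Gm13016 (0.93, adjusted p = 0.000285), Gm13033 (0.61, adjusted p = 0.0107) and Spata21 (0.50, adjusted p = 0.0197) were detected in every library. Tmem51os1 was lower (-1.12, adjusted p = 0.00138). It lies opposite Tmem51, whose own value was -0.11 (adjusted p = 0.269), and the library kits as described do not mark strand, so reads of such partners cannot be told apart. Sizable differences also occurred among members that did not pass, also named after their values were seen: Sytl1, a vesicle docking protein next to Map3k6, was at -0.79 (adjusted p = 0.0502) and Agmat at -0.61 (adjusted p = 0.0589), with 36 and 33 of 44 High Drinker libraries below the Low Drinker median.

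Within subsets of animals the directions were kept, which is no separate check, because the 26 were called on these same animals together. All 26 members that passed had the same sign in sheet sets 1 and 2 (26 of 26), with the larger size in set 2 for 20, and all 23 that could be tested in both sexes had the same sign in females and males. Fewer passed in a subset on its own by edgeR, 2 in females, 6 in males, 3 in sheet set 1 and 8 in sheet set 2, beside 0.212%, 0.652%, 0.459% and 0.459% of all genes tested in those fits. As shares of the members tested these were 1.04%, 3.13%, 1.51% and 3.86%. Of the 26, these fits called 2, 5, 3 and 8. Leaving out the 5 libraries that stood apart left 20 members (10.1%, beside 2.49% of all genes), all among the 26. The 6 lost included Map3k6, Hmgn2, Crybg2, Pafah2 and Akr7a5. Arhgef19 passed in all 13 alternative analyses, with log2 fold changes from 0.49 to 0.80.

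The remaining contrasts gave no calls among the members. Between males and females 0 of 199 members passed by edgeR, with 8 at an unadjusted p under 0.05, beside 0.0996% and 4.03% of all genes tested. The interaction of line and sex passed for 0 members (12 unadjusted, beside 0% and 5.65% of all genes), with a smallest adjusted p of 0.784. The interaction of line and sheet set passed for 0 members (4 unadjusted, beside 0.00586% and 2.21%). Variability, the absolute deviation of log2 CPM from the median of line and sex (tested with limma), differed for 0 members after adjustment (10 unadjusted, beside 0.0117% and 4.07%). Deviations were larger in High Drinker animals for 16 of the 26 members that passed between the lines and for 78 of 199 tested members. These counts were not tested, and no share over all genes is given beside them. The smallest adjusted p for variability among members was 0.979 (limma). For Arhgef19 the mean deviation on the log2 scale was 0.344 in the High and 0.220 in the Low Drinker line (limma, adjusted p = 0.979).

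The second question was whether neighbouring members varied together between animals of the same line. Pearson's r was computed within each line on residual log2 CPM, after removing the means of set, sex and line, for every pair of adjacent tested genes of the genome (17050 pairs per line). A pair counted when r was positive with an adjusted p under 0.05 in both lines (permutation test, 100000 resamples, two-sided, adjusted over the 17050 pairs). Of 188 adjacent pairs of members, 39 counted (20.7%), beside 18.5% of all adjacent pairs. The median r was 0.14 in the High Drinker and 0.13 in the Low Drinker line, and 0.13 in both lines over all pairs. In each line alone, 48 (High Drinker) and 52 (Low Drinker) member pairs were positive, beside 26% and 26.3% of all pairs, and 16 and 14 were negative, beside 7.51% and 7.52%. With 5 surrogate variables, estimated axes of variation shared by many genes, removed from the residuals, 20 member pairs were positive in both lines (10.6%), beside 7.16% of all pairs. Leaving out pairs with overlapping exons gave 35 of 175 (20%), beside 18% of all such pairs. By rank correlation 39 member pairs counted too, beside 16.5% of all pairs, and without the 5 libraries that stood apart 39 did, beside 16.7%. Correlation between direct neighbours was thus near its genome background.

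**Figure D3:**
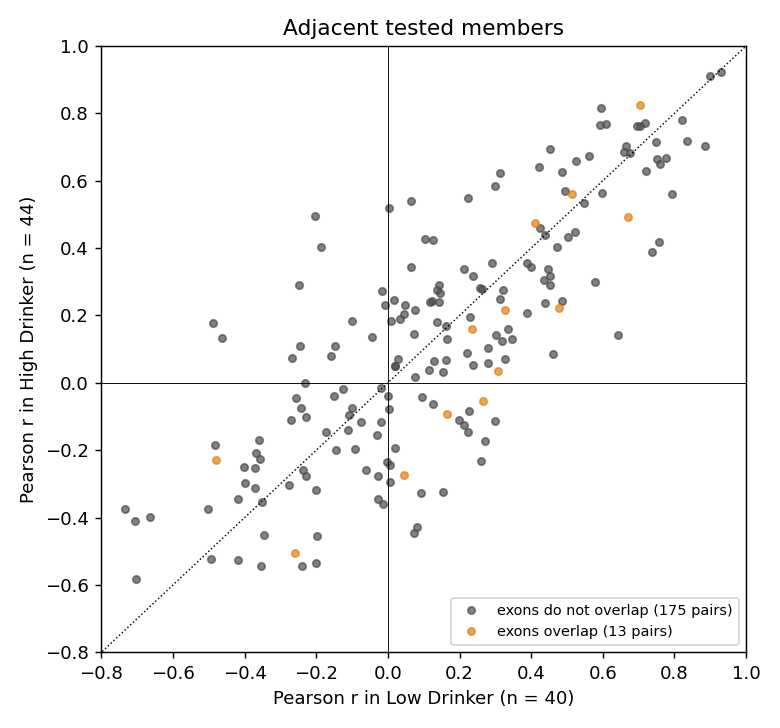
Pearson r of residual log2 CPM for 188 adjacent pairs of tested members, in Low Drinker animals (horizontal axis, n = 40) and High Drinker animals (vertical axis, n = 44). Grey points are 175 pairs whose exons do not overlap, orange points 13 pairs whose exons do, and the dotted line marks equal r in both lines.

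By orientation, divergent pairs, which are transcribed away from each other, counted in 11 of 43 cases (25.6%, beside 19.9% of all divergent pairs), tandem pairs in 21 of 102 (20.6%, beside 19.3%) and convergent pairs in 7 of 43 (16.3%, beside 15.5%). Pairs that overlapped or had a gap of up to 1000 bases counted in 11 of 35 cases (31.4%, beside 22.2% of all such pairs).

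The 6 pairs described next had the highest lower r of both lines among pairs whose exons do not overlap and whose genes both average over 1 CPM. The closest was Tmem200b, a transmembrane protein gene, with the noncoding Gm12992, which start 1742 bases apart in opposite directions. Their r was 0.92 in the High Drinker and 0.93 in the Low Drinker line, with rho at 0.90 and 0.91. Xkr8, a scramblase of the plasma membrane, and Smpdl3b, a lipid phosphodiesterase, lie in tandem 420 bases apart and had r of 0.91 and 0.90 (rho 0.90 and 0.86). Smpdl3b and the DNA replication gene Rpa2 diverge across 11080 bases, with r of 0.77 and 0.72 (rho 0.74 and 0.69). None of these 5 genes passed between the lines.

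The microtubule regulator Stmn1 and the progestin receptor Paqr7 had r of 0.78 and 0.82 (rho 0.78 and 0.83). Efhd2, a calcium-binding protein, and the noncoding Gm29367, which start 787 bases apart, had r of 0.72 and 0.84 (rho 0.74 and 0.83). Akr7a5 and Mrto4, the only pair of these 6 in which both genes passed between the lines, had r of 0.70 and 0.88 (rho 0.70 and 0.82). For these 6 pairs the permutation p was 1e-05, the smallest that 100000 resamples can give, except 2e-05 for Akr7a5 and Mrto4 in High Drinker animals. Adjusted over the 17050 pairs of a line, it was 0.000108 in High Drinker (0.000191 for Akr7a5 and Mrto4) and 0.000116 in Low Drinker animals, and for rho 0.000126 and 0.000150. Leaving out the 2 libraries farthest from the median gave r from 0.66 to 0.90 in High Drinker and from 0.62 to 0.92 in Low Drinker animals. Within sheet set 1 r was 0.66 to 0.92 in High Drinker (n = 30) and 0.80 to 0.94 in Low Drinker animals (n = 18), and within sheet set 2 it was 0.50 to 0.95 (n = 11) and 0.63 to 0.92 (n = 19). With 5 surrogate variables removed, r was 0.12 and -0.17 for Smpdl3b and Rpa2 and -0.13 and 0.18 for Efhd2 and Gm29367, and it ran from 0.37 to 0.71 for the other 4 pairs.

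Some adjacent pairs differed in r between the lines, and these were chosen for that difference and are given with no test of it. Spata21 and Szrd1, a convergent pair 241 bases apart, had r of 0.50 in High Drinker (rho 0.45, permutation p = 0.00077, adjusted p = 0.00406, rho p = 0.0022, adjusted p = 0.0104) and -0.20 in Low Drinker animals (rho -0.24, permutation p = 0.206, adjusted p = 0.343, rho p = 0.134, adjusted p = 0.264). It was 0.42 and -0.29 without the 2 farthest libraries. In sheet set 1 it was 0.56 and -0.20, and in sheet set 2 0.46 and -0.24. Rps6ka1, a ribosomal S6 kinase, and Hmgn2 had r of 0.18 in High Drinker (rho 0.11, permutation p = 0.245, adjusted p = 0.390, rho adjusted p = 0.623) and -0.49 in Low Drinker animals (rho -0.41, permutation p = 0.0012, adjusted p = 0.00582, rho adjusted p = 0.0318). It was 0.17 and -0.42 without the 2 farthest libraries, 0.11 and -0.40 in sheet set 1, 0.27 and -0.50 in sheet set 2, and 0.13 and 0.03 with surrogate variables removed. Capzb, the actin capping subunit, and the noncoding Gm16287 had r of 0.13 in High Drinker (rho 0.13, permutation p = 0.386, adjusted p = 0.539, rho adjusted p = 0.564) and -0.46 in Low Drinker animals (rho -0.38, permutation p = 0.0027, adjusted p = 0.0113, rho adjusted p = 0.0563). That pair was at 0.10 and -0.33 without the 2 farthest libraries, 0.29 and -0.52 in sheet set 1 and -0.22 and -0.46 in sheet set 2.

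Wider spacing was examined among the 26 members that passed between the lines, 325 pairs in all with starts up to 10.4 Mb apart. Each pair's r within a line was given the sign of the product of its fold changes, so that a positive value means that 2 genes differing in the same direction between the lines also varied together among animals of 1 line, or that 2 genes differing oppositely varied oppositely. In High Drinker animals 286 of 325 pairs were positive (88.0%, median 0.36), and in Low Drinker animals 263 (80.9%, median 0.22). Pairs of genes that passed and lie on different chromosomes, 206359 in all, were positive in 69.6% (median 0.12) and 71.6% (median 0.15). Pairs of a member with a gene on another chromosome were positive in 67.1% and 68.0%. The signs come from the line contrast and the pairs share genes and libraries, so these shares are a description with no test.

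**Figure D4:**
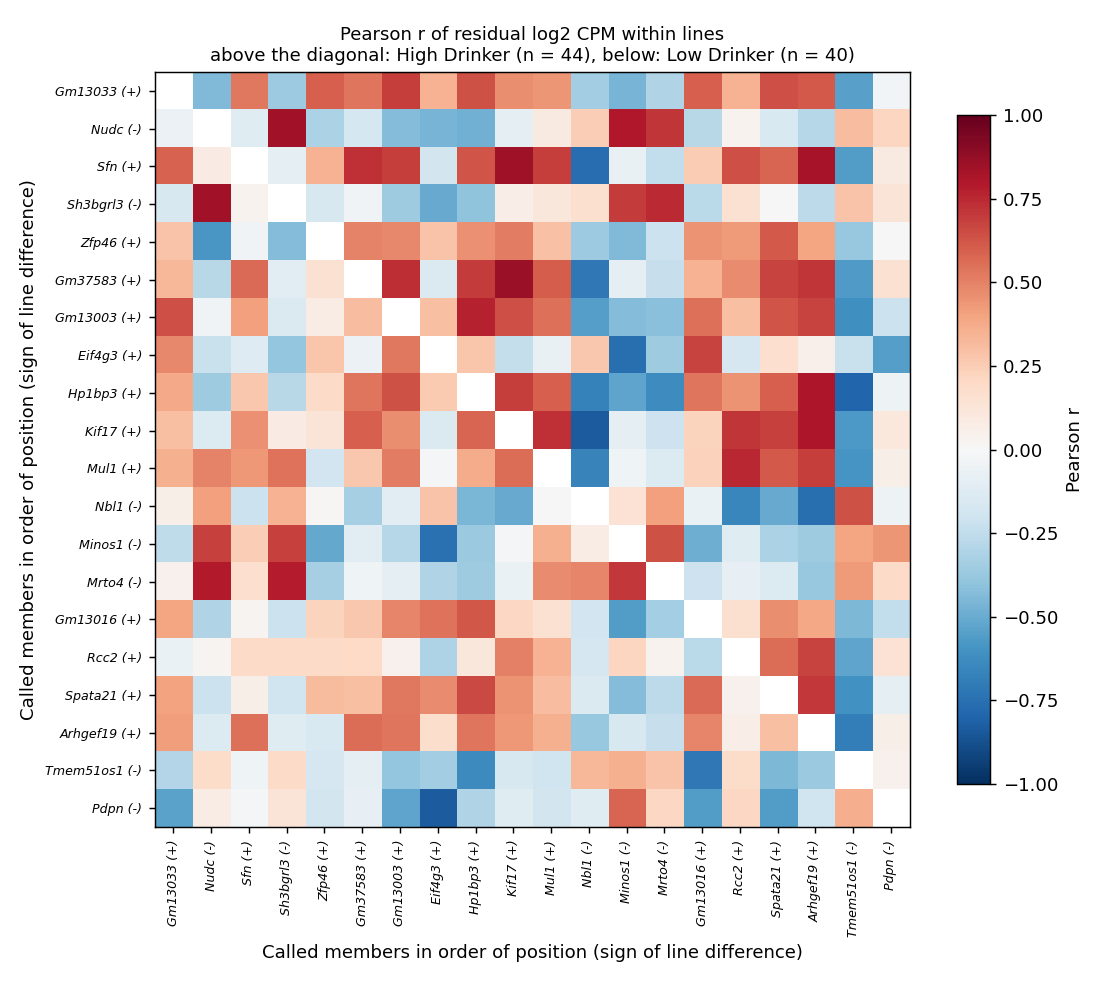
Pearson r of residual log2 CPM between the 20 members that passed both in all libraries and without the 5 that stood apart, in order of position, above the diagonal for High Drinker (n = 44) and below it for Low Drinker animals (n = 40). Signs after the names give the direction of the line difference, and Nudc, Sh3bgrl3 and Mrto4, all lower in High Drinker animals, had positive r with each other in both lines.

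Positive pairs were the majority at every distance. Within 1 Mb 90.3% of 62 pairs were positive in the High Drinker and 80.6% in the Low Drinker line, and from 6 to 11 Mb the shares of 62 pairs were 83.9% and 74.2%. Median signed r in those bins was 0.40 and 0.28 in High Drinker and 0.26 and 0.16 in Low Drinker animals. With 5 surrogate variables removed, 324 pairs (99.7%) and 306 pairs (94.2%) were positive, beside 77.0% and 73.8% across chromosomes. Within sheet set 1 the counts were 291 (89.5%, beside 69.5% across chromosomes) in 30 High Drinker libraries and 255 (78.5%, beside 73.4%) in 18 Low Drinker libraries. Within sheet set 2 they were 259 (79.7%, beside 59.7% across chromosomes) in 11 High Drinker libraries and 205 in 19 Low Drinker libraries. That last share, 63.1%, was no higher than the 64.1% across chromosomes.

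**Figure D5:**
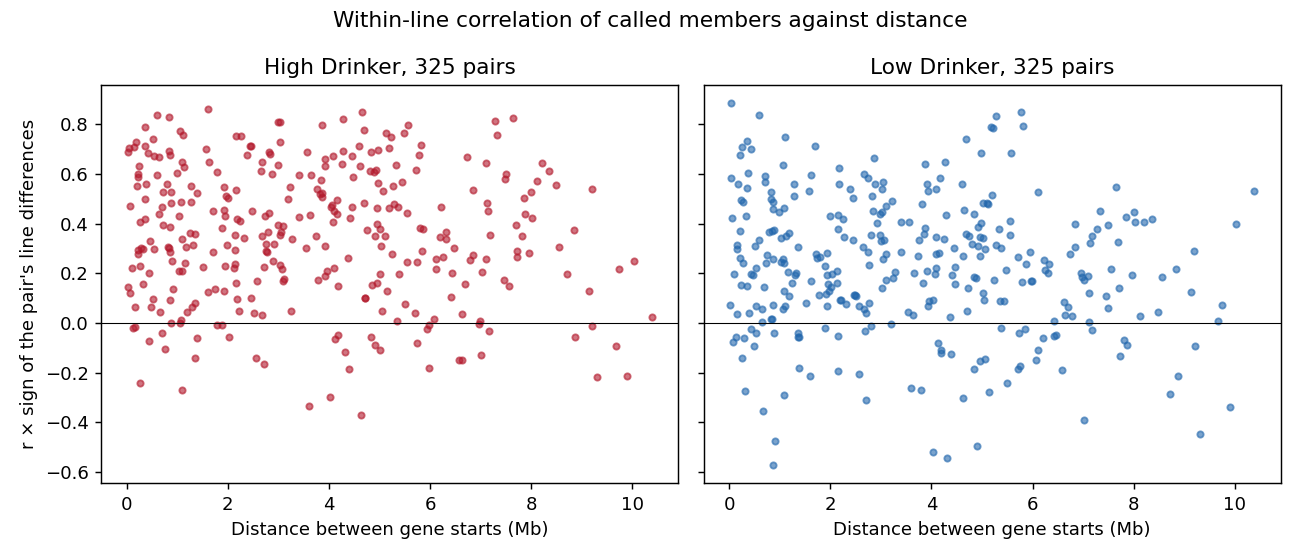
Signed r (vertical axis) of the 325 pairs of members that passed, against the distance between their starts in Mb (horizontal axis), in High Drinker (left) and Low Drinker animals (right). Points above 0 are pairs that varied within the line as their line differences would pair them, 286 on the left and 263 on the right.

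Of the 3 members with the smallest p, Arhgef19 was most like Hp1bp3 (r = 0.71 over 84 residuals), followed by Sfn (0.71), Kif17 (0.69), Gm37583 (0.67) and Hmgn2 (0.66), from 2.99 to 7.64 Mb away. These values were higher in High Drinker animals, where r of Arhgef19 with Sfn was 0.82 and with Hp1bp3 0.81, than in Low Drinker animals, where both were 0.55 and 0.54. The difference was not tested. Gm37583 was most like Kif17 (0.78), and Hp1bp3 most like Arhgef19, then Gm13003 (0.71). All 5 of the most similar members for each gene were themselves among those that were higher in High Drinker animals, beside 16 of 199 tested members. The 3 genes were chosen by their line difference, were all higher and stand in each other's lists. Gm37583, Gm13003 and Spata21 average under 1 CPM, so their r rests on few reads. These are descriptions over libraries that differed in depth and in summed cell type markers, and the markers were not a term in the residuals.

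The RNA of cell type markers varied with several of the members, as it did with most genes tested. A score was made for each library from the residual log2 CPM of the marker lists, and its correlation with every tested gene was computed over 84 libraries (17071 relations per score, permutation test with 100000 resamples, adjusted over them). Of all genes 59.3% passed with the medium spiny neuron score and 62.7% with the cortical score, beside 13 and 14 of the 26 members that differed between the lines. Eif4g3 had r = 0.82 with the cortical score (rho 0.81, permutation p = 1e-05 for both, the smallest the resamples can give, adjusted p = 3.06e-05 for r and 2.94e-05 for rho). It was 0.80 without the 2 farthest libraries, 0.84 in sheet set 1 and 0.83 in sheet set 2. Nbl1 had r = 0.63 with the same score (rho 0.61, the same permutation p and adjusted p), 0.63 without 2 libraries, and 0.64 and 0.58 in the sets. Hp1bp3 had r = -0.06 (rho -0.05, permutation p = 0.594, adjusted p = 0.659, rho adjusted p = 0.699), with -0.02 without 2 libraries and 0.03 and -0.09 in the sets. Arhgef19 had r = -0.27 (rho -0.24, permutation p = 0.0129, adjusted p = 0.0224, rho adjusted p = 0.0480), with -0.23 without 2 libraries and -0.15 and -0.43 in the sets. Also past 0.05 with the cortical score (permutation test, adjusted p) were Pdpn (r = -0.59), Hmgn2 (-0.58), Kif17 (-0.52), Rcc2 (-0.50) and Minos1 (-0.50). So were Pafah2 (0.50), Sfn (-0.45), Gm13016 (0.42), Gm37583 (-0.39) and Mul1 (-0.29). Where a member passed with both scores, the sign of r was opposite in them. The summed cortical markers had a median of 1607 CPM in the High Drinker and 1618 CPM in the Low Drinker line. With the medium spiny neuron score, whose 10 markers all had a positive fold change between the lines, r was -0.76 for Eif4g3 (rho -0.80), -0.59 for Nbl1 (rho -0.55), 0.63 for Hmgn2 (rho 0.64), -0.57 for Pafah2 (rho -0.53) and 0.57 for Pdpn (rho 0.49). For these 5 the permutation p was 1e-05 for r and rho, the smallest the resamples can give (adjusted p = 3.42e-05 for r and 3.18e-05 for rho). Without the 2 farthest libraries r was -0.78, -0.57, 0.59, -0.51 and 0.53 in the same order. In sheet set 1 it was -0.83, -0.63, 0.49, -0.53 and 0.54, and in sheet set 2 -0.71, -0.63, 0.84, -0.68 and 0.60. Of the 10 medium spiny neuron markers 0 passed between the lines (edgeR). Hmgn2 and Eif4g3 were higher in High Drinker animals, and Nbl1, Pafah2 and Pdpn were lower. Other members also passed with this score (adjusted p under 0.05, permutation test). Kif17 (r = 0.40), Rcc2 (0.39), Sfn (0.33), Gm37583 (0.31), Gm13016 (-0.39) and Gm13033 (-0.25, rho adjusted p = 0.108) were higher in High Drinker animals. Minos1 (0.41) was lower. Arhgef19 had r = 0.17 with this score (rho 0.12, permutation p = 0.129, adjusted p = 0.182, rho adjusted p = 0.338), with 0.10 without 2 libraries and 0.01 and 0.34 in the sets. The part of these markers in the line differences was not tested.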

How the data were processed

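The authors deposited raw counts of reads per gene, in a featureCounts table with a column for each animal. FastQC, STAR, featureCounts from Subread and edgeR, with build mm10, were used per the submitters' processing notes. Tool versions, the strand setting and the treatment of reads with several alignments are not stated in the sources used here. CPM values were computed from these counts after TMM scaling. Per the labels' protocols, RNA was extracted with Trizol from hand-dissected frozen tissue, and amplified cDNA (Ovation) was made into TruSeq DNA libraries read from 1 end. Amplified molecules cannot be told from original ones in gene counts.

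The members, gene lists and marker lists were chosen with earlier results of these data known. Counts were fitted with edgeR 4.0.16 in R 4.3.3 (TMM, filterByExpr by line and sex, quasi-likelihood F-test, model with sheet set, sex and line). Adjustment covered 17071 genes, at 0.05. That sheet sets are batches is an inference from the numbering. Variability was tested with limma 3.58.1 on log2 CPM with a prior count of 2. Alternatives used DESeq2 1.42.0, limma-voom, sva 3.50.0 with 5 surrogate variables, RLE factors, no filter, and subsets of libraries. Correlations used Python 3.11.15, numpy 2.4.6 and numba 0.67.0. In simulated tables of 17071 genes the line test recovered 72%, 84%, 100% and 100% of 50 genes each at folds of 1.25, 1.5, 2 and 4, with 7 false calls among 185. The simulated counts were drawn gene by gene, without set effects or variation shared between genes, so these rates need not hold in the real libraries.

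Named genes were up to 12 higher and 12 lower members by size of the line difference, among those past the threshold with at least 1 CPM and an established symbol, the most abundant tested member of each list, the members at each edge, 6 adjacent pairs with the highest value of the lower r of both lines (exons not overlapping, both genes over 1 CPM), 3 with the largest difference in r, and the 5 members most like each of the 3 with the smallest p. Values of 1 member chosen by this rule are not reported here. Coordinates are those of the deposited table. The start and end were the same in GENCODE for 241 members.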

Additional observations from a re-analysis of the deposited data

How the results depend on the processing

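Of the results tested between the lines, the count of members changed most with the model and the animals used. With 5 surrogate variables it was 72 (38 higher, 34 lower) instead of 26, which is 36.2% of the tested members instead of 13.1%, while the share of all genes went from 3.94% to 14.5%. It was 2 in females only, 6 in males only, 3 in sheet set 1 only and 8 in sheet set 2 only, fits with fewer animals. It stayed within 1.5 times of 26 under RLE factors (27), no filter (29), no set term (33), DESeq2 (30), limma-voom (28), without the 5 libraries that stood apart (20), without High Drinker 11 (28) and without sheet set 3 (26). The last 2 alternatives were chosen after seeing the data. The share that was higher was 61.5% in the reported fit, 45.5% with no set term and 52.8% with surrogate variables. All 26 members were also called under RLE factors, DESeq2, surrogate variables and without High Drinker 11, 25 under limma-voom, and 23 each with no filter, no set term and without sheet set 3. Under these alternatives no member that passed changed direction. Of the other named members, Sdc3, at 0.02 in the reported fit, was at -0.01 with no set term and at -0.00024 in females only, with no call in either. Atp13a2 passed with no set term (-0.15, edgeR, adjusted p = 0.0154) and with surrogate variables, where Ubr4 and Padi6 passed too. Between the sexes 36 of 199 members (18.1%) passed with 5 surrogate variables, instead of 0, beside 21.05% of all genes in that fit. The line by sex interaction and variability gave 0 under each alternative run. Adjacent pairs positive in both lines fell from 39 to 20 with surrogate variables removed (10.6%, beside 7.16% of all pairs). The cause of these shifts was not tested. The signed correlations within lines were recomputed under 4 alternatives chosen after seeing the data, and the counts of positive pairs ran from 259 to 324 in High Drinker and from 205 to 306 in Low Drinker animals. No paired analysis was possible because the labels give no replicate number shared between the lines, and numbers here only name samples in accession order. Members under about 1 CPM rest on few reads per library, so their fold changes are the least precise.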
